A study of Mus musculus with 8 samples.

Results

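Glycosylphosphatidylinositol (GPI) is a glycolipid that anchors many proteins to the outer face of the plasma membrane. It is built stepwise on phosphatidylinositol in the endoplasmic reticulum, attached as a whole to the end of a protein by the GPI transamidase, and then trimmed and given new fatty acids on the way to the cell surface. In neurons its cargo includes contactins, IgLON proteins, glypicans, A-type ephrins, Nogo receptors and the prion protein, many of them adhesion molecules or receptors of growing axons. Pgap1 encodes the enzyme that removes the fatty acid from the inositol ring directly after attachment, a step that comes before export from the endoplasmic reticulum.

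Levels of 10 genes of this pathway were examined in cultured neurons of Nuak1 knockout (KO) and wild-type (WT) mice. Nuak1 encodes an AMPK-related kinase. The genes were Piga, Pigv, Pign, Pigo, Pigk, Gpaa1, Pigt, Pgap1, Pgap2 and Pgap3, and each matched 1 of the 32726 gene identifiers in the table. Pgap1 was selected on its lower level in KO in these same libraries. The 9 others were chosen by their place in the pathway, with earlier results of these data known. The Pgap1 difference between the genotypes is therefore given below as a description without a test, and the tests concern the other genes.

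Neurons were cultured from embryos on a C57Bl/6JRj background, without serum, and poly-A RNA was sequenced after 5 days in vitro. There were 4 KO and 4 WT libraries, which the methods describe as separate animals. The KO allele is constitutive, so every cell type of the embryo carried it. The tissue label reads cortex or hippocampus, while the methods describe cortical neurons. Nuak1 itself had 86 to 102 reads in each KO library and 1612 to 4598 in each WT library. Its log2 fold change was -4.89 ± 0.133 (SE, n = 4 per group), with an adjusted p of 1.24e-07 by the edgeR quasi-likelihood test, so the labels and the targeted gene went together in all 8 libraries.

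Library totals ran from 31247078 to 67155004 counted reads, and values below are counts scaled to that total (CPM). KO1 and WT1 stood apart from the other 6 libraries. On the principal component that held 46.7% of the variance they lay at -28.5 and -31.4, while the others lay between 1.81 and 24.1. Lane A carried KO1, KO4, WT1 and WT3, and lane B the rest. The strain labels, which are not explained, were BJ for KO1 to KO3, BK for KO4, WT2 and WT4, BO for WT1 and BQ for WT3, so that strain label and genotype were partly confounded. KO3 and WT4 held 15583 and 12475 reads of the Y-linked genes Kdm5d, Uty, Ddx3y and Eif2s3y and the other libraries 0 to 14, so the counts of genes and the fold changes of the 10 genes were also computed without that pair.

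Summed levels of 6 neuronal markers (Tubb3, Map2, Rbfox3, Stmn2, Snap25 and Syt1) were 5990 to 6740 CPM in the KO libraries and 5980 to 6760 in the WT libraries. Those of 7 glutamatergic markers were 844 to 1030 and 830 to 1050 CPM, and those of 5 markers of hippocampal identity 232 to 271 and 188 to 285 CPM. Other cell types were present in both genotypes: 6 astrocyte markers summed to 724 to 1390 CPM (KO) and 696 to 1040 CPM (WT), and 6 microglial markers to 2.32 to 35.8 and 2.77 to 15.5 CPM. All 6 astrocyte markers and all 5 tested microglial markers had a positive log2 fold change in KO. Over all 16272 tested genes 7524 had a negative one. The astrocyte sum was 1050, 1240 and 1390 CPM in KO1 to KO3, above every WT library, and 724 CPM in KO4. Markers of dividing progenitors, 7 in all, summed to 209 to 320 CPM (KO) and 120 to 254 CPM (WT). GABAergic (185 to 323 and 165 to 259 CPM), oligodendrocyte lineage (485 to 601 and 454 to 581 CPM), and endothelial and fibroblast markers (11.3 to 21.3 and 6.36 to 34.3 CPM) also overlapped between genotypes. No defining marker was at 0 in all 8 libraries, and none of those tested passed the adjusted threshold. The part of these cells in the results below was not tested. A lower level in such bulk libraries may be fewer cells of a type or less RNA per cell, which cannot be told apart.

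Pgap1 (ENSMUSG00000073678, GRCm38 chr1:54473000-54557684) was read 8263, 6202, 9201 and 6675 times in KO1 to KO4, and 10167, 14801, 9961 and 8312 times in WT1 to WT4. Scaled to library totals this was 237, 179, 177 and 165 CPM in KO and 325, 220, 209 and 219 CPM in WT. WT1 was the highest of all libraries and KO1 the highest of the KO libraries. The groups overlapped only through KO1, which lay above WT2, WT3 and WT4, whereas KO2, KO3 and KO4 lay below every WT library. The KO mean was 190 ± 32.5 CPM and the WT mean 243 ± 54.9 CPM (SD, n = 4).

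With 1 surrogate variable in the model, an axis of variation shared by many genes and estimated from the libraries themselves, the log2 fold change of Pgap1 was -0.41 ± 0.0592 (SE), a level 24.6% lower in KO. KO1 and WT1 lay at -0.558 and -0.621 on that variable and the others between 0.048 and 0.392, and Pgap1 had a coefficient of -0.666 on it. The fold change was -0.44 in lane A alone and -0.37 in lane B alone. It was -0.45 without KO3 and WT4, -0.35 without KO1, WT1 and the surrogate variable, and -0.43 with strain label in place of the surrogate variable. The fits within 1 lane, here and below, likewise held no surrogate variable, and dropping it alone gave -0.40 for Pgap1. Over all 23 alternative settings the value stayed between -0.45 and -0.35. RefSeq places the gene model Gm51623 over part of Pgap1, and since the use of strand in counting is not stated, reads of the 2 cannot be told apart there.

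**Figure D1:**
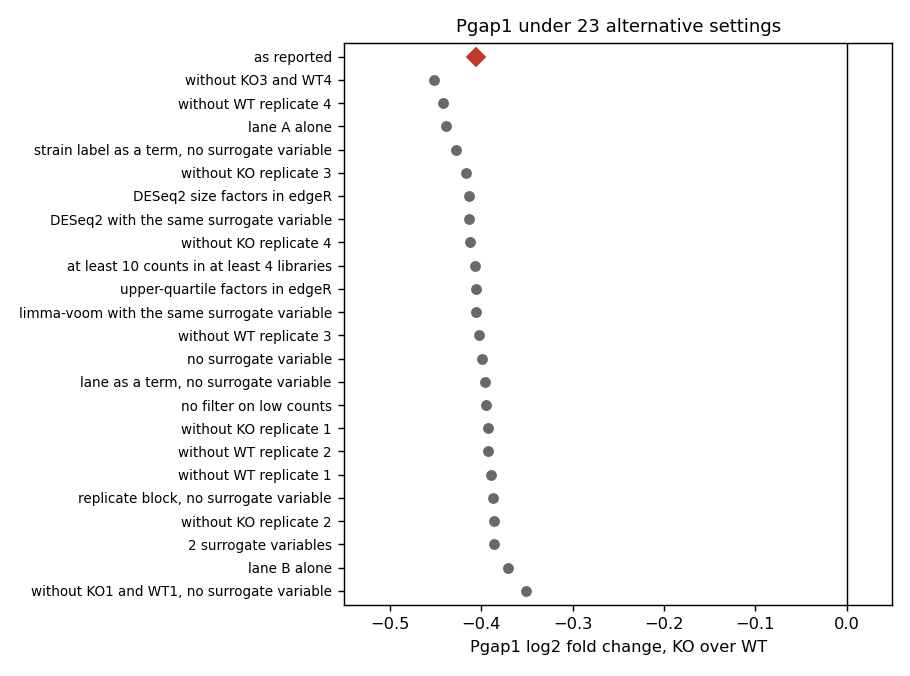
Log2 fold change of Pgap1 (KO over WT, horizontal axis) in the model as reported (red diamond) and under 23 alternative settings (grey points, vertical axis). Every point lies between -0.45 and -0.35, left of the black line at 0. Pgap1 was selected for its lower level in these same libraries.

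Of the 9 other genes, 0 passed the adjusted threshold of 0.05 by edgeR, and 0 by DESeq2 or limma-voom. Over all 16272 tested genes 8 passed by edgeR, which is 0.0492%, and 188 by DESeq2, which is 1.16%. At an unadjusted p under 0.05, 1 of the 9 was lower in KO (Pigk) and 0 were higher, while 5.75% of all tested genes were lower and 4.87% higher at that level. The CPM values of the genotypes overlapped for all 9, and for all tested genes they were separate in 0.86% with KO lower and in 1.54% with KO higher. All 10 genes passed the filter on low counts. The median log2 fold change of the 9 was -0.01, and that of all tested genes 0.01.

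**Figure D2:**
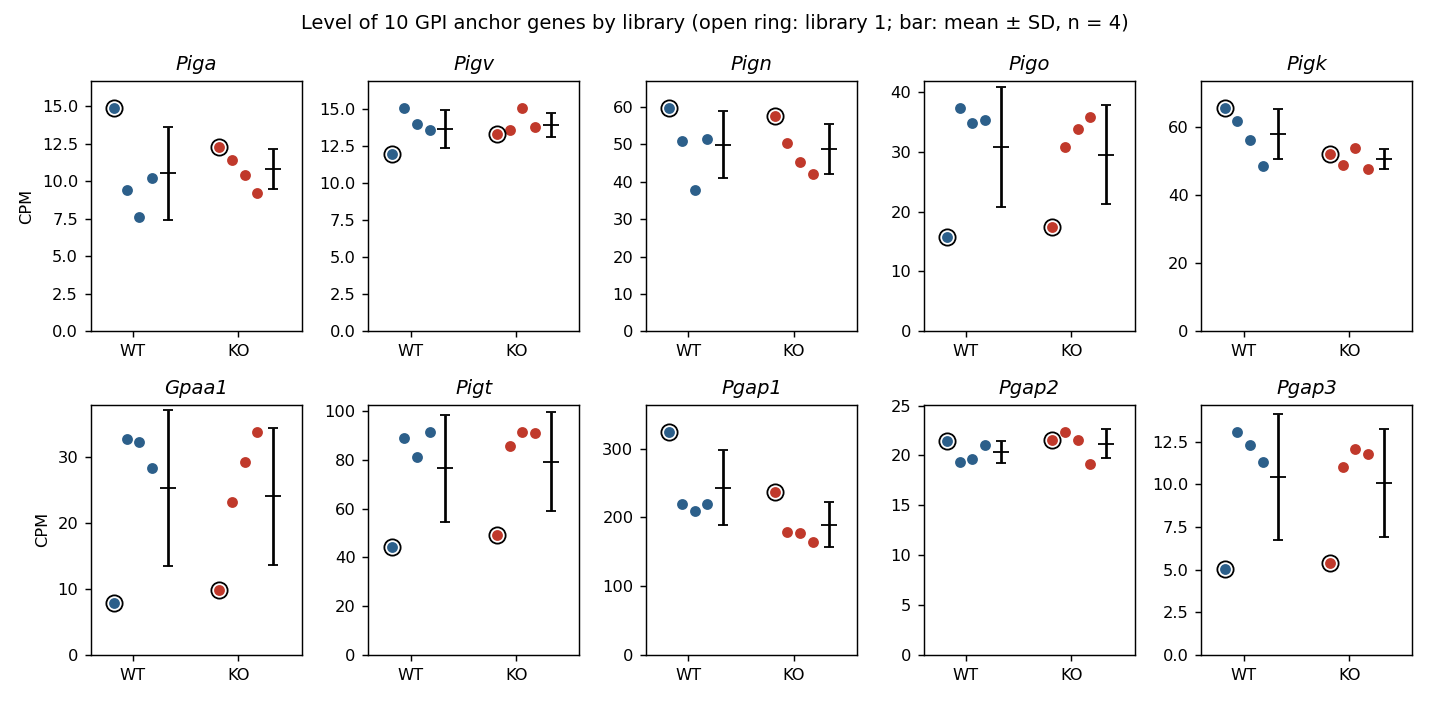
CPM (vertical axis, from 0) of the 10 genes in the 4 WT (blue) and 4 KO (red) libraries, with replicate 1 of each genotype ringed and the mean ± SD (n = 4) at the right of each group. The ringed libraries are the highest WT and KO libraries for Pgap1, and the lowest for Pigo, Gpaa1, Pigt and Pgap3.

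The pathway begins with the transfer of N-acetylglucosamine to phosphatidylinositol, for which the X-linked gene Piga (ENSMUSG00000031381) encodes the catalytic subunit. Piga was at 12.3, 11.4, 10.4 and 9.24 CPM in KO1 to KO4 and at 14.9, 9.4, 7.64 and 10.2 CPM in WT1 to WT4. The WT libraries spanned a wider range than the KO libraries and enclosed all of them. Its log2 fold change was 0.02 ± 0.104 (SE), with an adjusted p of 0.967 by edgeR. In the same step Pigq, another subunit of the transferase, was at 96.7, 117, 125 and 107 CPM in KO and 79.9, 97.6, 104 and 103 CPM in WT, and KO1 alone lay within the WT range. Pigq had a log2 fold change of 0.19 ± 0.0621, at an unadjusted p of 0.0117 and an adjusted p of 0.366 (edgeR), and the value was 0.08 with strain label in place of the surrogate variable.

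Mannose is then added in the lumen of the endoplasmic reticulum. Pigv (ENSMUSG00000043257), the transferase of the second mannose, was at 13.3, 13.6, 15.1 and 13.8 CPM in KO and 12, 15.1, 14 and 13.6 CPM in WT. It was the gene of the 10 with the smallest difference, a log2 fold change of -0.0025 ± 0.0879 (SE; edgeR adjusted p 0.996). KO1 and WT1 were the lowest of their groups by a small margin. Pigm, which adds the first mannose, had a log2 fold change of -0.13 ± 0.0672 (edgeR adjusted p 0.539), and it was -0.20 without WT1, -0.05 in lane A alone and -0.32 with strain label in place of the surrogate variable. The mannose donor is dolichol-phosphate-mannose, and Dpm2, a subunit of the enzyme that makes it, was at 34.6, 49.8, 50.3 and 47.3 CPM in KO and 31.1, 39.5, 43.2 and 42.1 CPM in WT. KO2, KO3 and KO4 were above every WT library, and KO1 was above WT1 only. Dpm2 had the smallest p of the pathway genes other than Pgap1, with a log2 fold change of 0.20 ± 0.0634 and an adjusted p of 0.366 (edgeR), and a log2 fold change of 0.12 in lane A alone.

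Ethanolamine phosphate is put on the first mannose by Pign and on the third by Pigo. Pign (ENSMUSG00000056536) was at 57.6, 50.3, 45.3 and 42.2 CPM in KO and 59.8, 50.8, 37.8 and 51.5 CPM in WT. KO1 and WT1 were the highest of their groups and WT3 was the lowest of all. Its log2 fold change was -0.08 ± 0.0833 (SE; edgeR adjusted p 0.757), and it was -0.02 without WT2, -0.16 without WT3 and -0.29 with strain label in place of the surrogate variable. Pigo (ENSMUSG00000028454) was at 17.5, 30.9, 33.9 and 35.8 CPM in KO and 15.8, 37.4, 34.8 and 35.3 CPM in WT. Here KO1 and WT1 were far below the other 6 libraries, which lay between 30.9 and 37.4 CPM, and the log2 fold change was -0.05 ± 0.0973 (SE; edgeR adjusted p 0.877). Pigg, which acts on the second mannose, was at 25.9, 21.6, 22.3 and 21.3 CPM in KO and 31.3, 27.1, 21.7 and 24.2 CPM in WT. KO2 and KO4 lay below all WT libraries. Its log2 fold change was -0.24 ± 0.0836, at an unadjusted p of 0.017 and an adjusted p of 0.385 (edgeR).

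The GPI transamidase joins the finished anchor to the protein, and 3 of its subunits were among the 10 genes. Pigk (ENSMUSG00000039047) is the catalytic subunit. It was at 52.2, 48.8, 53.8 and 47.8 CPM in KO and at 65.7, 61.7, 56.3 and 48.6 CPM in WT. Of the WT libraries WT1, WT2 and WT3 lay above every KO library, and WT4 lay within the KO range. The means were 50.7 ± 2.81 and 58.1 ± 7.38 CPM (SD, n = 4). The log2 fold change was -0.24 ± 0.0953 (SE), a level 15.3% lower in KO, at an unadjusted p of 0.0315 and an adjusted p of 0.429 by edgeR. Over the alternatives it ranged from -0.36 to -0.18, and the lowest adjusted p among them was 0.168. The Pigk model overlaps St6galnac5, Gm40181 and Rpl29-ps1.

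Gpaa1 (ENSMUSG00000022561) varied most of the 10 genes between libraries on the log2 scale. It was at 9.83, 23.2, 29.3 and 33.9 CPM in KO and 7.81, 32.7, 32.3 and 28.4 CPM in WT, with KO1 and WT1 far below the rest. Pigt (ENSMUSG00000017721), which holds the complex together, was at 49.1, 85.5, 91.6 and 90.9 CPM in KO and 44.4, 89.1, 81.1 and 91.6 CPM in WT, again with KO1 and WT1 lowest. Log2 fold changes were -0.01 ± 0.119 for Gpaa1 (SE; edgeR adjusted p 0.986) and 0.04 ± 0.0983 for Pigt (edgeR adjusted p 0.898). The catalytic subunit Pigk did not share the low values of KO1 and WT1 with these 2 partners.

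After attachment and the removal of the inositol acyl chain by Pgap1, the lipid is remodelled in the Golgi, where Pgap3 removes an unsaturated fatty acid and Pgap2 is needed for its replacement by a saturated one. Pgap3 (ENSMUSG00000038208) was at 5.4, 11, 12.1 and 11.8 CPM in KO and 5.02, 13.1, 12.3 and 11.3 CPM in WT. KO1 and WT1 were below 6 other libraries that lay between 11 and 13.1 CPM. Pgap2 (ENSMUSG00000030990) was at 21.6, 22.4, 21.6 and 19.1 CPM in KO and 21.5, 19.3, 19.6 and 21 CPM in WT, a narrow range in which neither KO1 nor WT1 stood out. Log2 fold changes were -0.04 ± 0.116 for Pgap3 (SE; edgeR adjusted p 0.934) and 0.02 ± 0.0682 for Pgap2 (edgeR adjusted p 0.956). The SE of Pgap2 was the smallest among the 9 tested genes. Pgap6, a surface phospholipase that acts on GPI-anchored proteins, was at 8.94, 12.3, 11.9 and 10.9 CPM in KO and 6.82, 9.5, 10.8 and 9.56 CPM in WT. KO2, KO3 and KO4 lay above every WT library. Its log2 fold change was 0.25 ± 0.0895, at an unadjusted p of 0.0192 and an adjusted p of 0.393 (edgeR), and 0.16 in lane A alone.

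Widened to a list of 42 genes from anchor synthesis to release at the surface, all of which were tested, the pathway without Pgap1 had 0 of 41 genes past the adjusted threshold by edgeR, by DESeq2 and by limma-voom. At an unadjusted p under 0.05, 3 were lower (Pigk, Pigg and Tmed7) and 3 higher (Pigq, Dpm2 and Pgap6), or 7.32% each way beside the 5.75% and 4.87% of all tested genes. Tmed7, a p24 protein of the family that carries cargo out of the endoplasmic reticulum, was at 210, 179, 163 and 150 CPM in KO and 232, 202, 157 and 197 CPM in WT. The ranges overlapped broadly, and its log2 fold change was -0.22 ± 0.0752 (SE; edgeR adjusted p 0.379), -0.14 in lane A alone and -0.42 with strain label in place of the surrogate variable. The median of the 41 was -0.03, and 26 were negative, beside 7524 of all 16272 tested genes. For 0 of the 41 were the genotypes separate in CPM. The count of 6 at an unadjusted p under 0.05 became 3 without KO1, 2 without KO2, 3 without WT1 and 0 with no surrogate variable. The share of all tested genes at that level, in either direction, moved from 10.6% to 7.55%, 6.36%, 5.45% and 2.52% in the same fits.

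**Figure D3:**
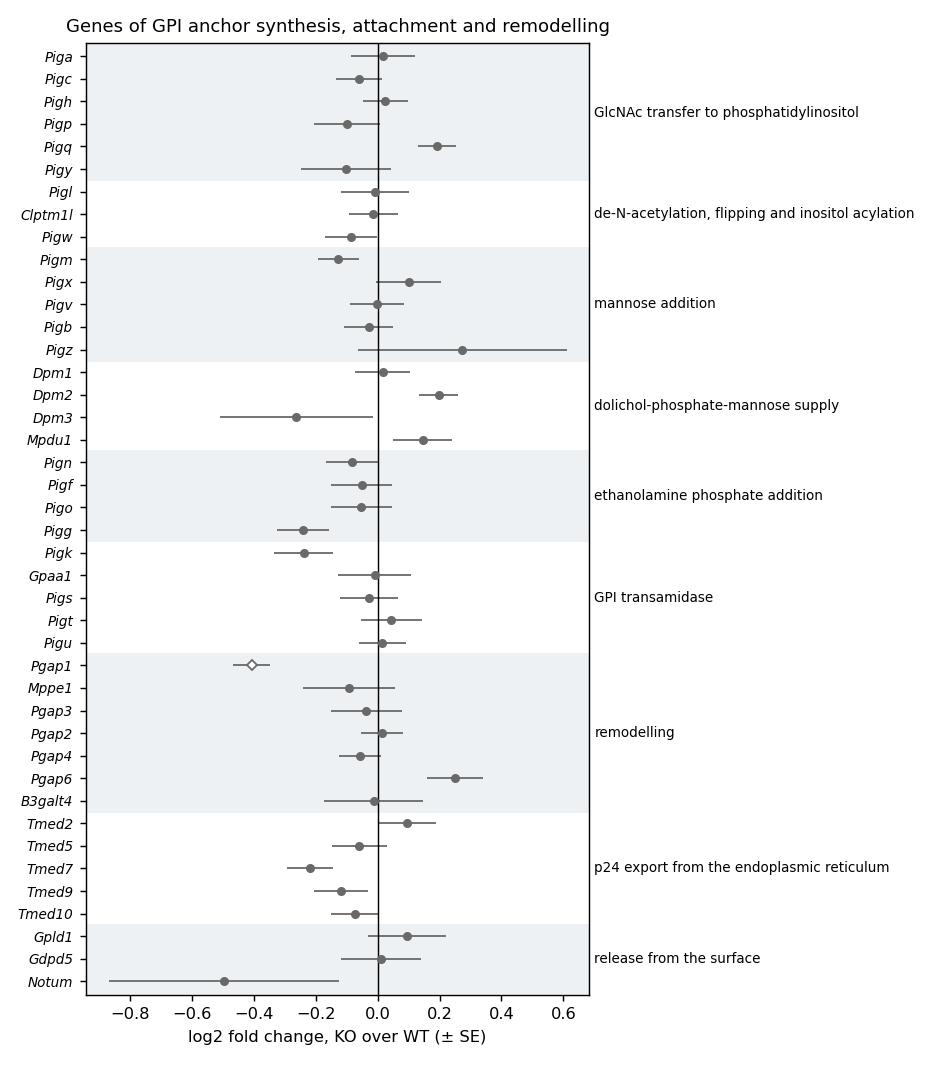
Log2 fold change (KO over WT, horizontal axis) ± SE from the model with 1 surrogate variable for 42 genes (vertical axis) grouped by step of the pathway, with Pgap1, selected on this contrast, as the open diamond at -0.41. Other genes of the same remodelling step lie between -0.09 and 0.25.

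The cargo of the pathway was described with a list of 58 genes of GPI-anchored neuronal proteins, of which 54 were tested and Gfra3, Nrn1l, Meltf and Bst1 were too low. By edgeR 0 of 54 passed the adjusted threshold, by limma-voom 0, and by DESeq2 1, the contactin Cntn4, beside the 1.16% of all tested genes that DESeq2 called. At an unadjusted p under 0.05 (edgeR), 7 were lower and 2 higher, or 13% and 3.7% beside 5.75% and 4.87% of all tested genes. The median log2 fold change was -0.13 and 35 of the 54 were negative, beside 7524 of all 16272 tested genes. This count of 9 became 5 without WT1, 15 without WT3 and 3 with no surrogate variable, and the share of all tested genes moved with it, from 10.6% to 5.45%, 15.6% and 2.52%.

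Contactins, axonal adhesion molecules of the immunoglobulin family, made up 4 of these 7. Cntn4 was at 6.04, 6.42, 7.6 and 6.15 CPM in KO and 14, 7.28, 10.5 and 9 CPM in WT. KO3 lay above WT2, and otherwise the KO libraries were below the WT libraries. Its log2 fold change was -0.65 ± 0.172 (SE), with an adjusted p of 0.307 by edgeR and 0.0252 by DESeq2, and it ranged from -1.03 to -0.27 over the alternatives, the values of lane A alone and lane B alone, and was -0.39 without WT1. Cntn5 was at 55.1, 51.9, 53 and 55.5 CPM in KO and 87.2, 75, 54 and 61.8 CPM in WT, where WT3 alone fell in the narrow KO range. Cntn5 had a log2 fold change of -0.40 ± 0.115 (edgeR adjusted p 0.337), Cntn6 one of -0.33 ± 0.135 (edgeR adjusted p 0.445) and Cntn1 one of -0.25 ± 0.109 (edgeR adjusted p 0.468). The value of Cntn6 was -0.21 without WT1, -0.51 in lane A alone, -0.13 in lane B alone and -0.09 with strain label in place of the surrogate variable. The value of Cntn1 was -0.09 in lane B alone. The 2 other contactins stood at -0.22 (Cntn3) and 0.06 (Cntn2), and the median of the 6 was -0.29. With 1 library left out Cntn3 ranged from -0.35 to -0.05, and it was at -0.05 without KO1 and at -0.06 without WT1. Cntn2 turned to -0.09 in lane B alone. WT1 was the highest library for Cntn1, Cntn3, Cntn4, Cntn5 and Cntn6 and the lowest for Cntn2.

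The other 3 that were lower at this level were Opcml, an IgLON adhesion protein, Mdga2, which binds neuroligins, and the Nogo receptor homologue Rtn4rl1. Opcml was at 528, 439, 444 and 338 CPM in KO and 794, 492, 439 and 440 CPM in WT, so WT1 stood far above the rest and the remaining libraries overlapped. Log2 fold changes were -0.34 ± 0.0998 for Opcml (SE; edgeR adjusted p 0.344), -0.23 ± 0.0819 for Mdga2 (edgeR adjusted p 0.39) and -0.27 ± 0.107 for Rtn4rl1 (edgeR adjusted p 0.427), the last at -0.16 without WT2 and -0.41 in lane B alone. For Opcml the value was -0.54 in lane A alone, -0.15 in lane B alone and -0.20 without KO1, WT1 and the surrogate variable, while dropping the surrogate variable alone gave -0.35. Higher were Lypd6, a Ly6 protein that acts on Wnt receptors, and Gfra4, a coreceptor of the GDNF family. Lypd6 was at 23.8, 24.6, 24.1 and 24.6 CPM in KO and 20.1, 20.2, 17.8 and 20.9 CPM in WT. Every KO library was above every WT library, as for 1 of the 54 genes here and 1.54% of all tested genes. Lypd6 had a log2 fold change of 0.26 ± 0.0754 (SE; edgeR adjusted p 0.339). Gfra4 had a log2 fold change of 0.27 ± 0.0816 (edgeR adjusted p 0.36), and of 0.13 in lane A alone.

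Ntng1, which encodes the axonal adhesion protein netrin-G1, was past the adjusted threshold in single alternatives and was named for that after its values were seen. It was at 9.2, 9.13, 11.3 and 9.91 CPM in KO and 17.5, 16.5, 7.09 and 15.7 CPM in WT. WT1, WT2 and WT4 lay above every KO library and WT3 below every one. The fold change on the log2 scale was -0.54 ± 0.251 (SE; edgeR adjusted p 0.495), -0.79 without WT3 (edgeR adjusted p 0.0156) and -0.73 in lane B alone (edgeR adjusted p 0.0349). Over all alternatives the value ranged from -0.79 to -0.37.

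**Figure D4:**
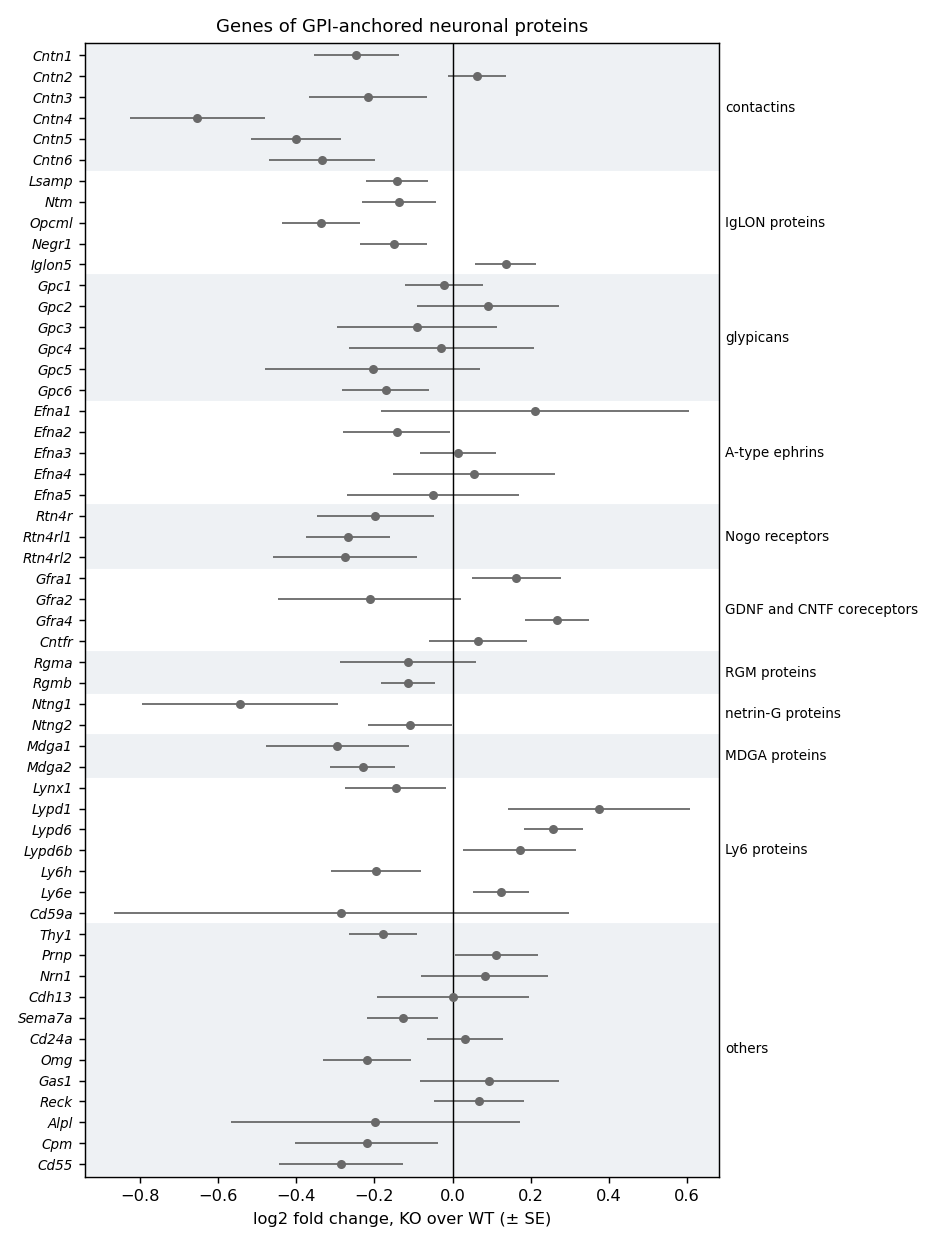
Log2 fold change (KO over WT, horizontal axis) ± SE for the 54 tested genes of GPI-anchored proteins (vertical axis), grouped by family. Contactins lie between -0.65 and 0.06, A-type ephrins between -0.14 and 0.21.

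How the 10 genes varied between libraries moved with their base composition. The coefficient of a gene on the surrogate variable, in log2 units, mainly reflects how far KO1 and WT1 lay from the other libraries. It was positive for Gpaa1 (2.16), Pgap3 (1.42), Pigo (1.26), Pigt (1.06) and Pigv (0.183), all lowest in KO1 and WT1 within their groups. It was negative for Pgap2 (-0.142), Pigk (-0.191), Pign (-0.531), Pgap1 (-0.666) and Piga (-0.719). Transcript GC content ran from 39.8% for Pgap1 to 59.9% for Gpaa1 around a median of 50.3% over tested genes. Across the 10 genes the Pearson correlation of GC content and coefficient was 0.92, across the 42 pathway genes 0.765 and across 13644 tested genes with a transcript 0.742. These genes share the same 8 libraries and are not independent replicates. The GC values come from the longest transcripts of an older annotation on NCBIM37, where Pgap1 is split into 2 models whose transcripts were added.

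**Figure D5:**
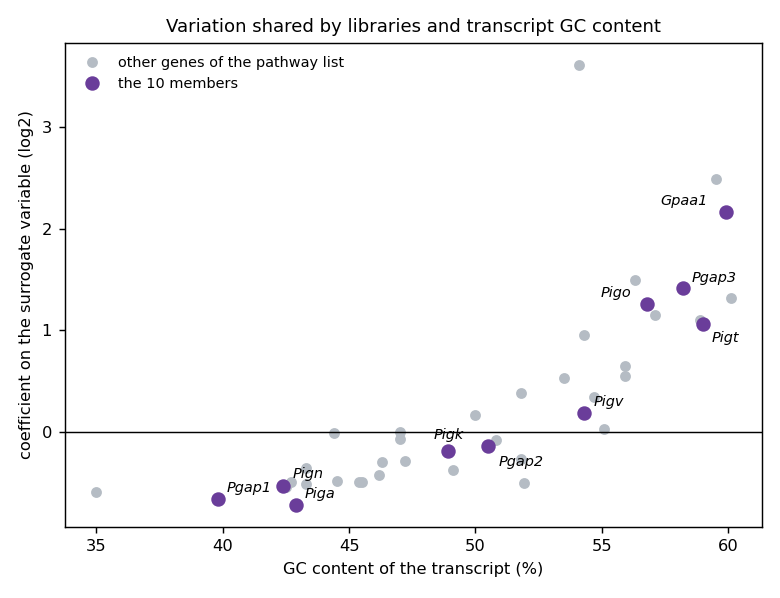
Coefficient of each gene on the surrogate variable (log2 units, vertical axis) against GC content of its transcript (%, horizontal axis) for the 10 genes (purple, named) and the other genes of the pathway list (grey). Gpaa1, Pgap3, Pigo and Pigt, at 56.8% GC or more, have the highest coefficients of the 10, and Pgap1, Pign and Piga, at 42.9% or less, the lowest.

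Genes with a profile most like that of Pgap1 over the 8 libraries were found by the root-mean-square (RMS) difference of centred log2 CPM, among 9795 tested genes with at least 0.75 times its standard deviation. The 5 nearest were 4932438A13Rik (0.0589), ENSMUSG00000109317 (0.0686), the sodium channel gene Scn2a1 (0.069), Lmbrd2 (0.0701) and Ptchd1 (0.0738). For Scn2a1 this meant 381, 306, 299 and 307 CPM in KO and 522, 386, 364 and 356 CPM in WT, with the features seen in Pgap1 of a high WT1, a KO1 within the WT range and the remaining KO libraries below the WT ones. None of the 5 was on the list of 42 pathway genes used here. The nearest of the 9 others was Pigk, at an RMS of 0.204 and rank 1195 of the tested genes, followed by Pign (0.213) and Piga (0.246). Gpaa1 was the farthest, at 1.03 and rank 15736.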

How the data were processed

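Raw read counts per Ensembl gene, as deposited by the authors, were used for 4 KO and 4 WT libraries. The authors trimmed reads with Cutadapt 1.10, dropped ribosomal RNA reads, aligned to mm10 with STAR 2.5.3a and counted unique reads per gene with HTSeq 0.6.1p1 (union mode). Reads shared by overlapping genes or by near-identical copies are thereby lost. Labels and methods differ on read length and layout. Here edgeR 4.0.16 under R 4.3.3 was applied to these counts (filterByExpr, TMM, robust quasi-likelihood F test), with 1 surrogate variable from svaseq (sva 3.50.0) and Benjamini-Hochberg adjustment over 16272 genes at 0.05. The SE is the absolute log2 fold change over the square root of F. Alternatives used DESeq2 1.42.0, limma 3.58.1 (voom), other size factors, filters and covariates, single lanes, and fewer libraries. A likeness ranking used log2 CPM with a prior count of 0.5. The procedure was run on simulated counts with known changes. Unlike these data, the simulation held no axis of variation shared by libraries.

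Members and lists were chosen with earlier results of these data known. Named were the 10 members, the 6 other pathway genes and 8 anchored proteins with the smallest p, the 5 genes nearest to Pgap1, and Nuak1. Cntn1, Cntn2, Cntn3 and Ntng1 were named after their values were seen. Symbols and GRCm38 positions came from RefSeq tables (23260 of 32726 identifiers matched). No pair of libraries was a duplicate. KO and WT libraries of the same number deviated together with correlations of 0.778, 0.00783, 0.229 and -0.0192, so the numbers were not taken as pairs.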

Additional observations from a re-analysis of the deposited data

Results flagged for a closer look

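In a group of 4 libraries, a value was picked out when the gap to its nearest neighbour was a larger share of the group's range than Dixon's critical value, which chance passes in about 1 in 20 groups. Of 66 groups examined, 10 held such a value, and all 10 lay in KO1 or WT1. Of these, 1 was Pgap1 and 4 were genes picked for a profile like it, so the tally is not set against chance. Among the 10 pathway members, WT1 was lowest for Pigo (15.8 CPM, the other WT libraries 34.8 to 37.4) and for Gpaa1 (7.81 CPM, the others 28.4 to 32.7), KO1 was lowest for Pigt (49.1 CPM, the other KO libraries 85.5 to 91.6), and WT1 was highest for Pgap1 (325 CPM, the others 209 to 220). Among GPI-anchored proteins WT1 was highest for Opcml (794 CPM, the others 439 to 492) and KO1 for Mdga2 (122 CPM, the others 88.8 to 91.5). Among the genes nearest to Pgap1, WT1 was highest for 4932438A13Rik (466 CPM) and ENSMUSG00000109317 (1.6 CPM), and KO1 for Scn2a1 (381 CPM) and Ptchd1 (15.2 CPM). The choice of these 4 genes by likeness fixes their high WT1 and KO1.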

How the results depend on the processing

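The Pgap1 fold change was negative under all 23 alternatives. Pgap1 was picked for a lower level in these same libraries, so its sign in refits of them tests nothing. Counts past the adjusted threshold stayed at 0 for the 9 other members and for the 41 other pathway genes. For GPI-anchored proteins that count was 1 with DESeq2 (Cntn4, log2 fold change -0.66, adjusted p 0.0252), 1 in lane B alone and 1 without WT3 (Ntng1 in both, log2 fold changes -0.725 and -0.793), and 0 to 1 over the fits that left out 1 library. Over all genes the calls ranged from 0 in lane A to 188 (1.16%) with DESeq2, and were 99 (0.588%) in lane B and 91 (0.554%) without WT3 against 8 (0.0492%).

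At an unadjusted p under 0.05 the pathway count of 6 became 0 when the surrogate variable was dropped. The other fits without it change 2 choices at once. They gave 0 with lane or strain label as a term, 0 in lane A and 1 without KO1 and WT1. They also gave 5 in lane B and 4 with replicate number as a block. With the variable kept the count was 3 without KO3 and WT4, and 2 to 8 with 1 library left out. The anchored count of 9 became 3 when the variable was dropped. Without it the count was also 3 with lane as a term, 1 with strain label as a term, 1 in lane A and 5 without KO1 and WT1. It stayed at 9 in lane B and with replicate number as a block. With it the count was 12 without KO3 and WT4, and 5 to 15 with 1 library left out. Over all genes the share at that level was 10.6% in the model as reported and moved to 2.52% with no surrogate variable. Among fits without the variable it was 2.94% with lane and 1.91% with strain label as a term, 0.591% in lane A and 4.05% without KO1 and WT1. In lane B it was 11.2%, and with replicate number as a block 7.17%. With the variable it was 8.9% without KO3 and WT4. The cause was not tested.

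Signs of log2 fold changes near 0 turned in places. Dropping the surrogate variable alone turned none. In other fits without it they were in lane A -0.0981 (Piga), 0.0412 (Pigv), 0.001 (Pign), 0.0679 (Pigo), 0.128 (Gpaa1) and -0.0386 (Pgap2), and in lane B -0.0949 (Pigt) and -0.0946 (Cntn2). In fits of that kind they were, with strain label as a term, -0.0985 (Piga), 0.133 (Gpaa1), -0.0069 (Pigt) and -0.0909 (Pgap2), and, without KO1 and WT1, -0.0001 (Pigt). With 2 surrogate variables they were -0.0504 (Piga), -0.0433 (Pigt) and -0.016 (Pgap2). Without KO3 and WT4 they were -0.0037 (Piga), 0.0013 (Pigo) and 0.0549 (Gpaa1). With 1 library left out the ranges were -0.0583 to 0.123 (Piga), -0.0356 to 0.0574 (Pigv), -0.163 to -0.0165 (Pign), -0.13 to 0.018 (Pigo), -0.0954 to 0.0862 (Gpaa1), -0.0449 to 0.105 (Pigt), -0.0078 to 0.0419 (Pgap2) and -0.11 to 0.0543 (Pgap3). The lowest adjusted p of these 8 pathway members over the alternatives was 0.239. Directions of Pigk, of the 6 pathway genes and of the 8 anchored genes with the smallest p did not turn. Nor did those of Cntn1, Cntn3 and Ntng1.

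With the replicate number as a block and no surrogate variable, Pgap1 was at -0.39 and 3 genes of all passed the adjusted threshold against 8. Not every library deviated most like its own number, and the numbers are not shown to pair samples.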
